A study of Mus musculus with 12 samples.

Results

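The inflammation-induced miRNAs mmu-miR-146a, mmu-miR-146b, mmu-miR-155, mmu-miR-132, mmu-miR-21 and mmu-miR-147 were examined in murine pulmonary endothelial cells. They were chosen by name, as miRNAs known to rise with NF-κB or Toll-like receptor signalling in other cells. The choice was made with earlier results of these data known, so the place of a member among all assays is not an independent finding. These miRNAs correspond to 6 of the 375 miRNA assays (335 mouse and 40 rat) on a TaqMan low-density array (TLDA). Endothelial cells were isolated from the lungs of wild-type male C57BL/6N mice (6 to 10 weeks old, 3 mice pooled for an isolation) with beads against CD144 and then CD31, grown to confluence and kept for 2 hours in medium with 2% serum before stimulation. Of 12 samples, 4 were unstimulated controls, 4 (labelled TD) received the NOD1 ligand Tri-DAP and 4 the NOD2 ligand MDP, each ligand at 10 μg/mL for 6 hours. The groups are described as differing in the ligand, with genotype, culture and serum shared. Each sample has 1 array with its own number in the labels (control 4, 7, 10 and 13, Tri-DAP 5, 8, 11 and 14, MDP 6, 9, 12 and 15). The study speaks of 4 independent isolations, but the labels do not say which arrays share one. The values therefore describe cultured cells of pooled mice, and the p-values measure the spread between these arrays.

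NOD1 and NOD2 are cytosolic receptors for fragments of bacterial peptidoglycan and signal through the kinase RIPK2 to NF-κB and MAP kinases. MiR-146a and miR-146b are known as feedback inhibitors of Toll-like receptor signalling, since both repress the signalling proteins IRAK1 and TRAF6. MiR-155 is made from the transcript Mir155hg and lowers the inhibitors SOCS1 and SHIP1, miR-132 is induced through CREB and represses p120RasGAP in endothelium, miR-21 represses PDCD4, and miR-147 is known from macrophages, where Toll-like receptor ligands induce it and it dampens cytokine production.

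The mature sequences are shown because the TLDA assays have to tell close relatives apart, and because the seed decides which members can share targets. They are RefSeq sequences on GRCm38.p6, matched by name, with the seed (bases 2 to 8) in capitals. A mature sequence was found for 5 of the 6 members, and the sixth is mmu-miR-147. The deposited files do not state the arm, and the arm printed is the one that carries the plain name by convention. MiR-212-3p, which has no assay on the array, stands beside its neighbour miR-132-3p.
mmu-miR-146a-5p: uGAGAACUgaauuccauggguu
mmu-miR-146b-5p: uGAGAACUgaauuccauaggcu
mmu-miR-155-5p: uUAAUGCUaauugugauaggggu
mmu-miR-132-3p: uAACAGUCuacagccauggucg
mmu-miR-212-3p: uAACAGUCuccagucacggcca
mmu-miR-21a-5p: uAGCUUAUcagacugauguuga

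MiR-146a-5p and miR-146b-5p share the seed GAGAACU and differ at 2 of 22 positions, G18A and U21C, counted from the 5′ end with the base of miR-146a-5p first. MiR-146a-5p lies at chr11:43374435-43374456 on the minus strand. MiR-146b-5p lies at chr19:46342790-46342811 on the plus strand, within the span of the long noncoding RNA gene Gm36493. The other members with a sequence have seeds of their own, and the seed of miR-147 was not compared. MiR-155-5p lies at chr16:84714143-84714165 on the plus strand, within Mir155hg. MiR-132-3p lies at chr11:75173723-75173744 on the plus strand, with a gap of 203 bp between its hairpin and that of Mir212. These neighbours share the seed AACAGUC and differ at 5 positions (A10C, C14U, U17C, U20C and G22A, miR-132-3p first). MiR-21a-5p lies at chr11:86584120-86584141 on the minus strand, within the span of the protein-coding gene Vmp1.

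A TLDA is a card of 384 TaqMan wells and reports the PCR cycle at which the signal crosses a threshold (Ct), so that early wells hold more RNA, with 1 cycle for a factor of 2. A Ct of 40, the last cycle, means undetermined. Between 231 and 254 miRNAs were measured per array, and 174 on all 12 arrays. Expression is given as log2 relative to U6, the small nuclear RNA read in 4 wells of each array. The U6 mean itself ranged from Ct 18.3 on Tri-DAP array 14 to 21.6 on Tri-DAP array 8, and the SD of the 4 wells from 0.11 to 2.05 cycles. The endothelial miRNAs miR-126-3p and miR-126-5p were measured on all arrays at a mean Ct of 19.7 and 21.3. Of the 4 leukocyte markers, miR-150 and miR-223 were measured on all arrays at 29.8 and 31.3, miR-142-3p on 9 arrays and miR-142-5p on 2, and the liver miRNA miR-122 was undetermined on all 12.

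Arrays 13, 14 and 15, 1 of each group, stood apart from the other 9. On the scale of log2 relative to the mean of the 174 miRNAs present on every array, the summed level of the 5 muscle and mural markers was 5.29 to 5.52 there and -0.80 to 2.32 elsewhere. Of the 4 of these markers measured in both sets of arrays, miR-143, miR-145 and miR-133a were higher on arrays 13 to 15 without overlap, and miR-1 overlapped. The epithelial miR-200c, miR-141 and miR-429 were also higher there and the leukocyte miR-150 lower, each without overlap, and the other 5 epithelial and leukocyte markers compared overlapped. The sum of both miR-126 arms was 8.11 to 8.23 there and 9.33 to 10.3 elsewhere. The groups had like ranges of the mural sum, with -0.72 to 5.52 in control, -0.38 to 5.34 after Tri-DAP and -0.80 to 5.29 after MDP. The sum of the 6 epithelial markers ran from -2.79 to 3.17 in control, from -1.62 to 1.68 after Tri-DAP and from -0.92 to 1.97 after MDP. The part of these markers in the results below was not tested. In such samples, fewer cells of a type and less RNA per cell cannot be told apart. These 3 arrays were singled out after their values had been seen.

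The 6 miRNAs lay between percentiles 3.64 and 88.6 of the miRNAs measured on an array, counted from the earliest Ct. MiR-21 was the most abundant, with a mean Ct of 23.7 ± 0.51 (SD, n = 12), followed by miR-146a at 24.0 ± 0.65 (SD, n = 12) and miR-155 at 25.4 ± 0.46 (SD, n = 12). MiR-132 followed at 27.7 ± 1.52 (SD, n = 12), miR-146b at 30.0 ± 0.81 (SD, n = 12) and miR-147 at 33.3 ± 1.15 (SD, n = 8). Within an array, miR-21 took place 9 to 16 of the measured miRNAs and miR-146a place 11 to 23, whereas miR-147 took place 177 to 217. Of the neighbours in this order, only miR-21 and miR-146a did not differ beyond their spread, with a difference within arrays of 0.30 ± 0.70 cycles (SD, n = 12) that had this direction on 9 of 12 arrays. Each of the other 4 pairs of neighbours kept its order on all arrays where both were measured, although miR-155 and miR-132 came within 0.03 cycles on 1 array. Assays can differ in efficiency, so that the order of Ct is only a rough order of abundance.

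**Figure D1:**
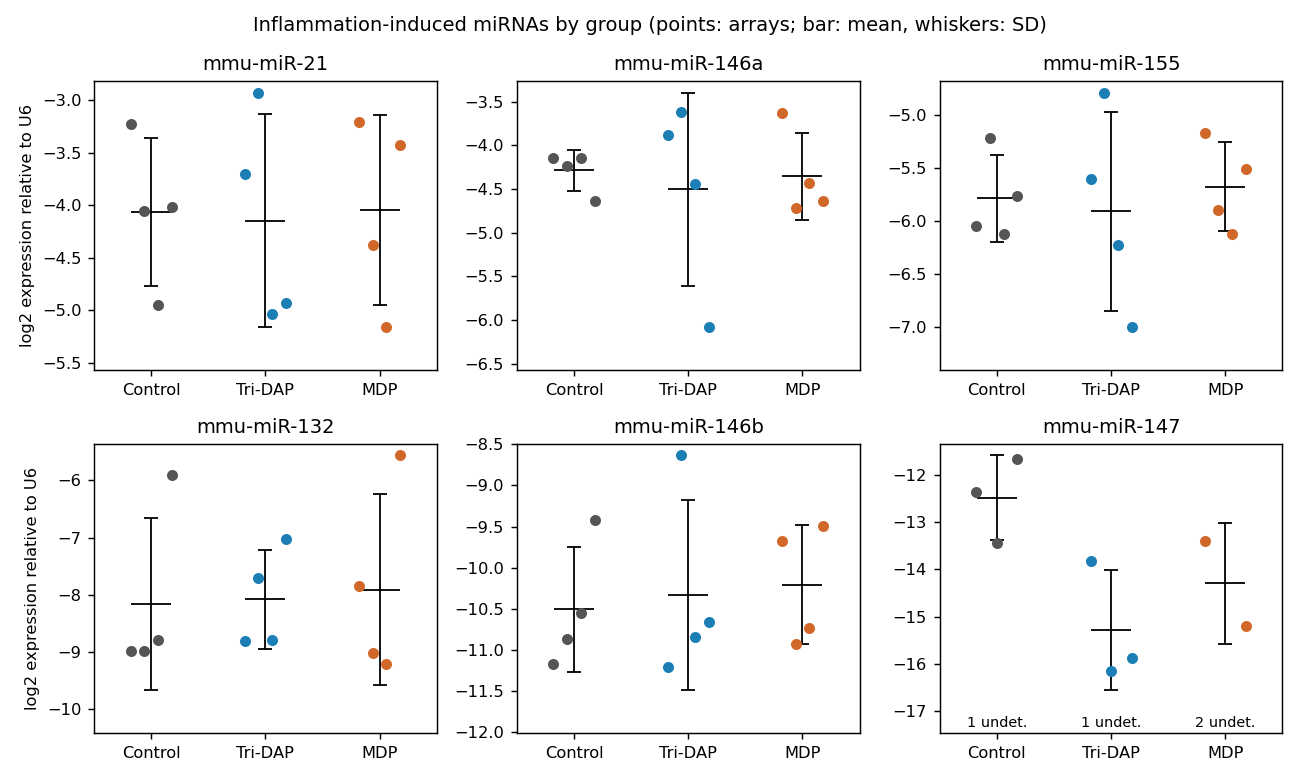
Log2 expression relative to U6 of the 6 miRNAs in control, Tri-DAP and MDP arrays. Points are arrays, the short bar is the mean and the whiskers are the SD, and the number of undetermined wells stands at the bottom of the mmu-miR-147 panel. The groups overlap for all but mmu-miR-147, whose measured Tri-DAP values (-16.2 to -13.8) lie below the measured control values (-13.4 to -11.7).

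The first question was whether stimulation with Tri-DAP or MDP changed the expression of these miRNAs. None of mmu-miR-146a, mmu-miR-146b, mmu-miR-155, mmu-miR-132 and mmu-miR-21 passed the test in either comparison, and the log2 fold changes of these 5 lay between -0.22 and 0.17 after Tri-DAP and between -0.07 and 0.30 after MDP. MiR-147 was lower after Tri-DAP at an unadjusted p under 0.05 and was not called after MDP. Thus 1 of 6 members was called after Tri-DAP, against 1.69% of the 237 miRNA assays tested, and 0 of 6 after MDP, against 1.23% of 244. After adjustment 0 assays were called in either comparison, with a smallest adjusted p of 0.998 and 1 in the limma fit (4 and 3 assays unadjusted), and 0 by an unmoderated equal-variance test of each pair of groups (4 and 1 unadjusted). With 6 members, these shares do not set the group apart from the other miRNAs.

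The feedback inhibitor miR-146a was highly expressed in every sample. Its log2 expression relative to U6 was -4.14, -4.23, -4.14 and -4.63 on control arrays 4, 7, 10 and 13, and -3.88, -3.62, -4.44 and -6.09 on Tri-DAP arrays 5, 8, 11 and 14. After MDP it was -3.63, -4.72, -4.43 and -4.63 on arrays 6, 9, 12 and 15. The control values lay close together, and both stimulated groups reached above and below them. Tri-DAP array 14, the array with the earliest U6, was the lowest of all. It was also the lowest relative to the mean of the miRNAs present on every array, at 3.95. The log2 fold change was -0.22 after Tri-DAP (standard error 0.60, 95% interval -1.52 to 1.08, limma adjusted p = 0.998) and -0.07 after MDP (standard error 0.60, interval -1.37 to 1.24). In fold terms, the data allow values of miR-146a from 0.349 to 2.12 times the control after Tri-DAP. The two-sided exact permutation test gave p = 0.886 for each ligand. Before normalization the Ct ran from 23.0 to 25.2, with 23.4 to 24.3 in control cells.

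MiR-146b, which shares the seed of miR-146a, had a level in the middle of the measured miRNAs. Its log2 expression relative to U6 was -11.2, -10.9, -10.6 and -9.43 on the control arrays in the same order, -11.2, -8.64, -10.8 and -10.7 after Tri-DAP and -9.68, -10.9, -10.7 and -9.50 after MDP. The groups overlapped, and the highest value belonged to Tri-DAP array 8, the array with the latest U6. This array was also the highest relative to the mean of the miRNAs present on every array, at -0.54. The log2 fold change was 0.17 after Tri-DAP (standard error 0.68, 95% interval -1.32 to 1.66; two-sided exact permutation test, p = 0.8) and 0.30 after MDP (standard error 0.68, interval -1.19 to 1.78, p = 0.657 in the same exact test). Since 2 assays of 1 array can be compared without a reference, the gap between both relatives was also taken. MiR-146b reached the threshold 5.97 ± 0.93 cycles (SD, n = 12) after miR-146a, from 4.57 to 7.32. The gap was 7.03, 6.64, 6.41 and 4.80 in control cells, 7.32, 5.02, 6.40 and 4.57 after Tri-DAP and 6.06, 6.20, 6.30 and 4.86 after MDP. The smallest gaps were thus on arrays 13, 14 and 15, 1 of each group, followed by Tri-DAP array 8. The gap differed from the control by -0.39 cycles after Tri-DAP (two-sided exact permutation test, p = 0.714, Benjamini-Hochberg adjusted p = 0.714 over 2 tests) and by -0.36 after MDP (p = 0.486, adjusted 0.714, in the same exact test). Both differences were smaller than the SD of the control arrays, 0.98 cycles.

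MiR-155, which lowers inhibitors of cytokine signalling, had the smallest SD of Ct among the 6 members, while miR-21 had the narrower range of Ct. Its Ct was 25.9, 25.3, 25.4 and 25.2 in control cells, 25.3, 26.4, 24.8 and 25.3 after Tri-DAP and 25.4, 25.9, 24.8 and 25.2 after MDP. Relative to U6, the log2 expression was -6.05, -5.22, -6.12 and -5.76 in control cells, -5.60, -4.79, -6.23 and -7.01 after Tri-DAP and -5.17, -5.90, -6.13 and -5.51 after MDP. No group was separated from another, and the highest and the lowest value both belonged to Tri-DAP, on arrays 8 and 14. The log2 fold change was -0.12 after Tri-DAP (standard error 0.57, 95% interval -1.35 to 1.11; two-sided exact permutation test, p = 0.83) and 0.11 after MDP (standard error 0.57, interval -1.12 to 1.34, p = 0.771 in the same exact test).

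For miR-132 the arrays differed far more within a group than the groups did. Its Ct was 28.8, 29.0, 28.0 and 25.4 on control arrays 4, 7, 10 and 13, 28.5, 29.3, 27.3 and 25.3 on Tri-DAP arrays 5, 8, 11 and 14, and 28.1, 29.0, 27.9 and 25.3 on MDP arrays 6, 9, 12 and 15. In each group the array with the last number was the earliest by 2 cycles or more. Relative to U6, the log2 expression was -8.98, -8.97, -8.78 and -5.91 in control cells, -8.80, -7.71, -8.78 and -7.03 after Tri-DAP and -7.84, -9.02, -9.20 and -5.57 after MDP. The log2 fold change was 0.08 after Tri-DAP (standard error 0.94, 95% interval -1.96 to 2.12; two-sided exact permutation test, p = 0.8) and 0.25 after MDP (standard error 0.94, interval -1.78 to 2.29, p = 0.8 in the same exact test). The residual SD of 1.39 was the largest of the 6 miRNAs. Without arrays 13, 14 and 15 the log2 fold change was 0.48 after Tri-DAP (standard error 0.63) and 0.22 after MDP (standard error 0.63), and neither was called.

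MiR-21, a miRNA abundant in many cultured cells, was the earliest of the 6 in all groups. The log2 expression relative to U6 was -3.23, -4.06, -4.95 and -4.02 in control cells, -3.70, -2.93, -5.03 and -4.93 after Tri-DAP and -3.20, -4.38, -5.16 and -3.43 after MDP. The lowest value of each group was on array 10, 11 or 12, and the groups overlapped over nearly their whole range. The log2 fold change was -0.08 after Tri-DAP (standard error 0.68, 95% interval -1.55 to 1.38) and 0.02 after MDP (standard error 0.68, interval -1.45 to 1.49), and the two-sided exact permutation test gave p = 0.971 for each.

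MiR-147 was the one member close to the detection limit and the one with a called difference. Its Ct was 32.2, 33.5 and 31.1 on control arrays 4, 7 and 13 and undetermined on control array 10. After Tri-DAP it was 33.5, 34.7 and 34.2 on arrays 5, 11 and 14 and undetermined on array 8, and after MDP it was 33.4 and 33.9 on arrays 9 and 12 and undetermined on arrays 6 and 15. The share of wells measured did not separate the groups, with 5 of 8 after either ligand and 3 of 4 in control cells (two-sided Fisher's exact test, p = 1). Relative to U6, the log2 expression was -12.4, -13.4 and -11.7 in control cells, -13.8, -16.2 and -15.9 after Tri-DAP and -13.4 and -15.2 after MDP. All measured Tri-DAP values lay below all measured control values, a separation seen in 3.8% of the 237 assays tested, and 1 MDP value lay within the control range, so that MDP was not separated from control by any of the 6 members (2.87% of the 244 assays were). The log2 fold change was -2.80 after Tri-DAP (standard error 0.93, 95% interval -4.92 to -0.68), with the smallest unadjusted p of all 237 assays in limma and an adjusted p of 0.998. The two-sided exact permutation test gave p = 0.1, which is the lowest value possible with 3 arrays against 3. The MDP value of -1.81 (standard error 1.03, interval -4.18 to 0.56) had an adjusted p of 1 in limma and p = 0.3 in the same exact test. Against MDP, Tri-DAP did not differ beyond the spread, with 0.99 for MDP minus Tri-DAP (standard error 1.03, interval -1.38 to 3.36), so that an effect of only 1 ligand is not shown.

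With both ligands together against the control, miR-147 was at -2.30 (standard error 0.83, 95% interval -4.21 to -0.39) with an adjusted p of 0.998 in limma. It was the only one of 235 assays called, which is 0.426% (two-sided exact permutation test over the 5 and 3 measured arrays, p = 0.0536). The other 5 members lay between -0.14 and 0.23 in this comparison. Between both ligands, 0 of 6 members were called, against 2.07% of 241 assays, although all 6 had a higher mean after MDP, as did 180 of the 241 assays. The comparisons with control share the 4 control arrays.

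The Tri-DAP call of miR-147 rested on single arrays and on how undetermined wells are treated. With these wells at Ct 40 the log2 fold change was -1.51 after Tri-DAP and was not called. The call was also lost without control array 13 (-2.39), without Tri-DAP array 11 (-2.36) and without arrays 13 to 15 (-2.10). It was kept with each other reference and with no normalization, where it ran from -2.92 to -1.86. For both ligands together the call was lost with undetermined wells at Ct 40 (-2.06), without control array 4 (-2.24) or 13 (-1.89), without arrays 13 to 15 (-1.74) and with the median of the U6 wells as reference (-2.05). It was also lost with arrays of consecutive numbers as sets, at -1.59 relative to U6 and -0.99 relative to the mean of the miRNAs.

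**Figure D2:**
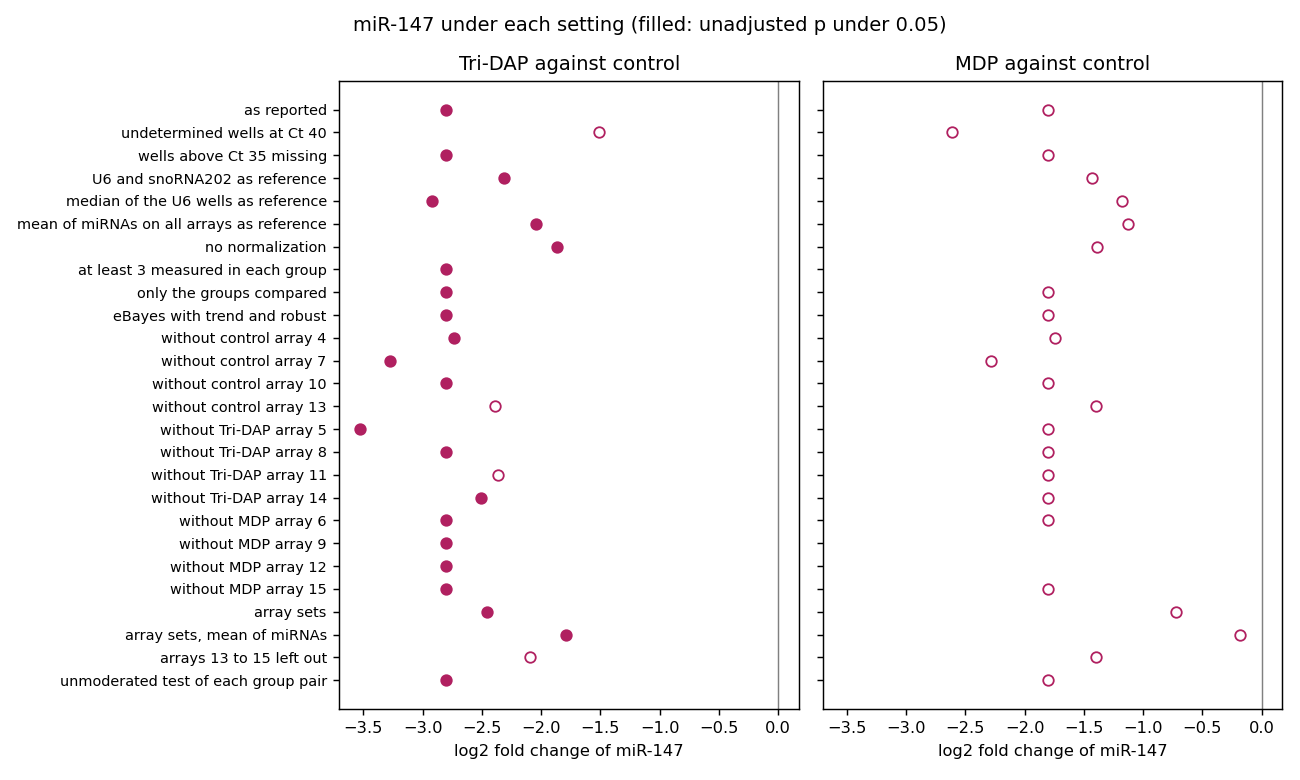
Log2 fold change of miR-147 (x axis) under each setting (rows), for Tri-DAP on the left and MDP on the right. Filled points passed an unadjusted p under 0.05, and a missing point means that too few arrays were left to test. All values for Tri-DAP are below 0 (-3.53 to -1.51), as are all for MDP, of which none is filled.

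The reference moved the values of the other members as much as the ligands did. Over all 237 assays the median log2 fold change after Tri-DAP was -0.24 relative to U6, with 75.1% of the assays below 0, and 0.01 relative to the mean of the miRNAs present on every array, with 49.8% below 0. All 4 assays called after Tri-DAP were lower relative to U6, whereas 1 of 5 was higher relative to the mean of the miRNAs and 2 of 7 were higher with no normalization. Set against the median of all assays, miR-146b was at 0.41, miR-132 at 0.32, miR-21 at 0.16, miR-155 at 0.12 and miR-146a at 0.02 after Tri-DAP, and miR-147 at -2.56. After MDP, where the median was -0.02, these values were 0.32, 0.28, 0.04, 0.13 and -0.04, and -1.79 for miR-147. The median after MDP was 0.22 with the median of the U6 wells as reference.

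**Figure D3:**
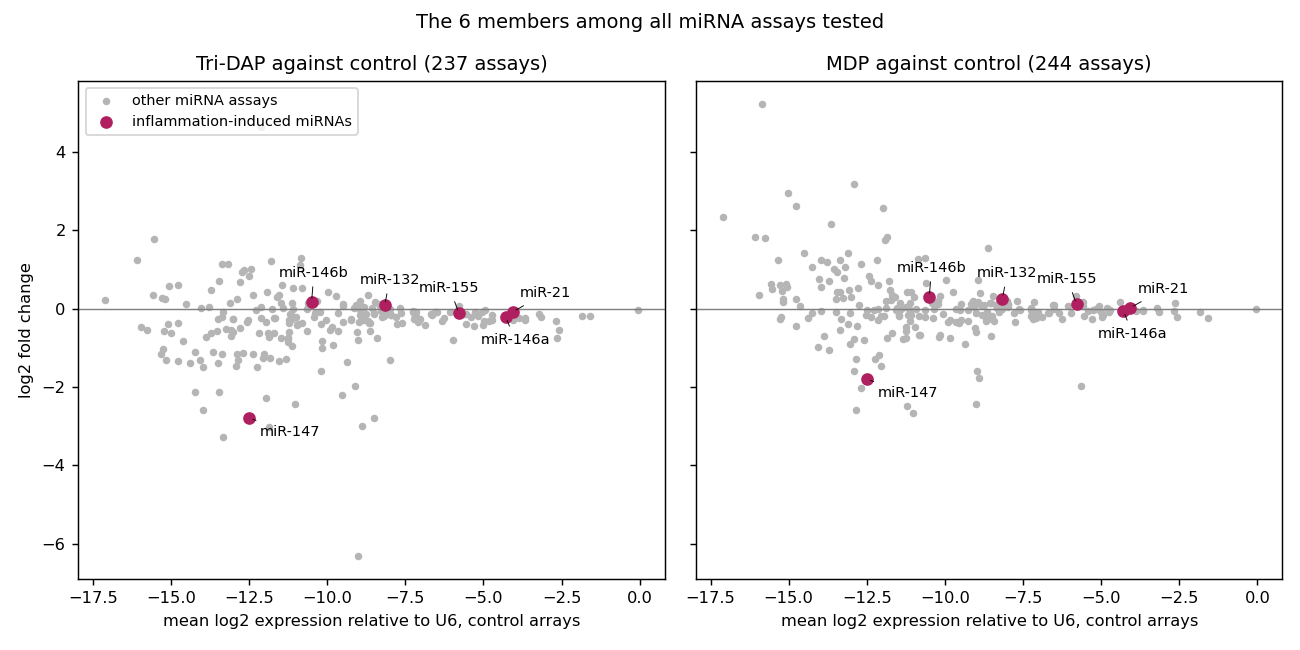
Log2 fold change (y axis) against the mean log2 expression relative to U6 on the control arrays (x axis) for all miRNA assays tested, 237 for Tri-DAP and 244 for MDP. Grey points are other assays and coloured points the 6 members, of which 5 lie within 0.30 of 0 and miR-147 lies at -2.80 and -1.81.

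Narrower intervals were obtained for the 5 members measured on all arrays when the reference was changed to the mean of the miRNAs and, at the same time, arrays with consecutive numbers in the labels were treated as sets (4 to 6, 7 to 9, 10 to 12 and 13 to 15), each with 1 array of every group. The 4 isolations of the study would give as many sets, but neither the labels nor the methods say which arrays share one, and the sets were adopted after the values had been seen. Deviations from the group means were correlated between arrays across the 174 miRNAs measured on all arrays. The median r was 0.30 between arrays of consecutive numbers (12 pairs, -0.12 to 0.83). It was -0.11 between other arrays of different groups (36 pairs, -0.64 to 0.32). When each of the 12 arrays was compared only with arrays of the other groups, 10 correlated best with one of their own set. Because the sets were adopted with these values known, the correlations describe the sets and do not test them. With these sets as a block and the mean of the miRNAs as reference, the residual SD of miR-132 was 0.16 in place of 1.39, and that of miR-146a 0.19 in place of 0.71. With the sets alone these were 0.71 and 0.59, and the residual SD of miR-146b was 0.98 against 0.90 without them. None of the 5 members measured on all arrays was called in this fit. Tri-DAP gave a log2 fold change of 0.01 for miR-146a (95% interval -0.40 to 0.42), 0.11 for miR-155 (-0.37 to 0.59) and 0.15 for miR-21 (-0.27 to 0.57). After MDP it was -0.03 for miR-146a (-0.44 to 0.38), 0.14 for miR-155 (-0.33 to 0.62) and 0.06 for miR-21 (-0.36 to 0.47). A doubling of miR-146a, miR-155 or miR-21, which is 1 on the log2 scale, lay outside every one of these intervals. It also lay outside them with the mean of the miRNAs as reference and no sets, where the upper ends were 0.96, 0.72 and 0.91 after Tri-DAP and 0.92, 0.82 and 0.81 after MDP. With the sets alone and U6 as reference, it lay outside only for miR-146a after Tri-DAP, where the upper end was 0.988. The other upper ends after Tri-DAP were 1.09 for miR-155 and 1.15 for miR-21. After MDP the upper ends were 1.14 for miR-146a, 1.32 for miR-155 and 1.26 for miR-21.

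Of the 5 members measured on all arrays, 4 lay above the control in at least 3 of 4 sets after each ligand. Both ligands of a set are compared with the same control array, so their counts are not independent. The shares that follow are for each ligand alone. Of the 174 miRNAs measured on all arrays, 7.47% were above the control in 4 of 4 sets after Tri-DAP and 32.8% in at least 3, and after MDP 5.17% and 35.1%. Within sets, and relative to the mean of the miRNAs, miR-132 was above its control in 4 of 4 sets after Tri-DAP (0.14 to 0.43) and in 3 of 4 after MDP (-0.04 to 0.66). For both ligands together it was at 0.30 (95% interval -0.03 to 0.63), with an adjusted p of 0.860 in limma, which is not a call. MiR-146b was above its control in 4 of 4 sets after Tri-DAP, by 0.225, 1.35, 0.01 and 0.03 in the order of the sets. After MDP it was above in 3 of 4 (-0.18 to 1.02). MiR-155 and miR-21 were above the control in 3 of 4 sets after each ligand, and miR-146a in 2 of 4. The differences ran from -0.46 to 0.70 after Tri-DAP and from -0.34 to 0.40 after MDP for miR-155. For miR-21 they ran from -0.22 to 0.35 and from -0.45 to 0.48. MiR-147 had a measured control and Tri-DAP value in only 2 sets, where the differences were -1.22 and -2.95. It had a measured control and MDP value in 1 set, arrays 7 to 9, where it was higher after MDP by 0.40. In the set of arrays 10 to 12 it was undetermined in the control and measured after both ligands, at Ct 34.7 and 33.9. In the same fit its log2 fold change was -1.79 after Tri-DAP (interval -3.47 to -0.12, limma adjusted p = 0.796) and -0.18 after MDP (interval -2.23 to 1.87).

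**Figure D4:**
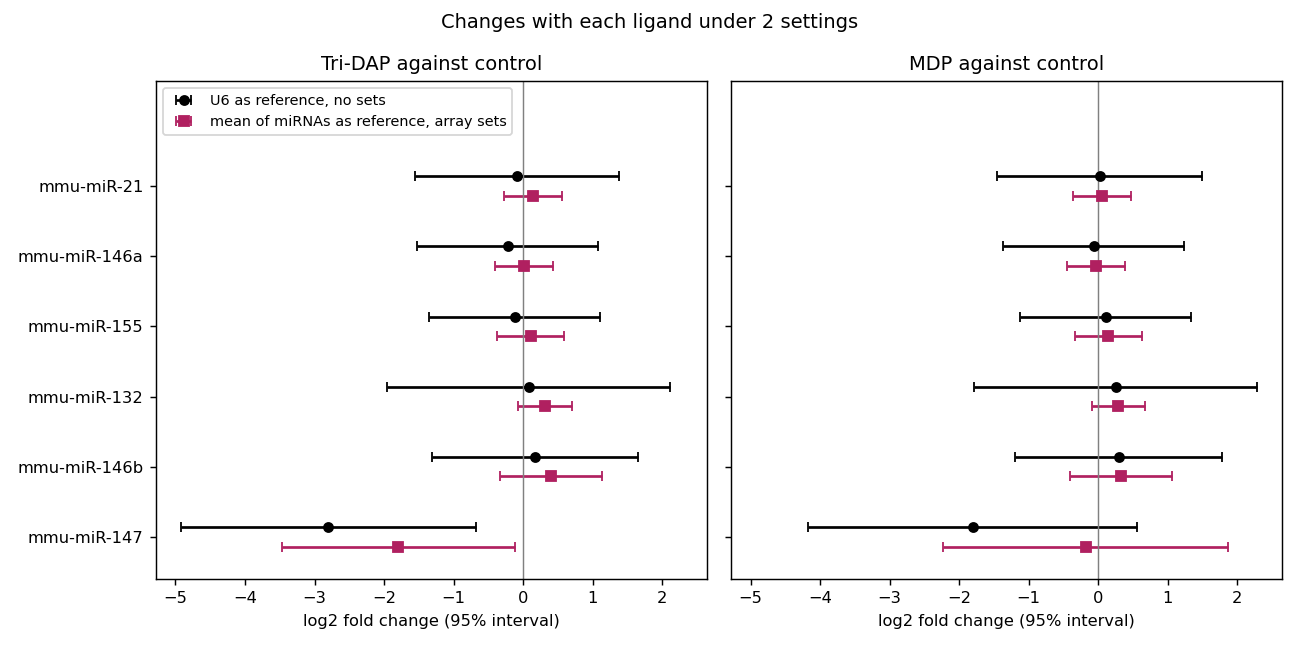
Log2 fold change (x axis, with 95% intervals) of the 6 miRNAs (rows) after Tri-DAP and MDP, relative to U6 without sets (circles) and relative to the mean of miRNAs with arrays of consecutive numbers as sets (squares). The squares of miR-146a, miR-155 and miR-21 have intervals that run no further than from -0.44 to 0.62, and the intervals of miR-147 are the widest.

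Some members varied alike across arrays and others in opposite directions. Relative to the mean of the miRNAs present on every array, Pearson's r over the 12 arrays was 0.67 between miR-146b and miR-132, 0.60 between miR-146a and miR-155, -0.43 between miR-146a and miR-146b, and -0.71 between miR-146a and miR-132. The closest patterns to miR-132 among 165 mouse assays were those of miR-143 (r = 0.92) and miR-145 (r = 0.92), both miRNAs of smooth muscle and mural cells. On arrays 13 to 15 miR-145 had a Ct of 23.1 to 23.5 and miR-143 of 24.8 to 25.0, against 27.0 to 33.1 and 27.0 to 30.6 elsewhere. MiR-132 had a Ct of 25.3 to 25.4 on these arrays and of 27.3 to 29.3 elsewhere. The closest to miR-146a were miR-467a (r = 0.92) and miR-672 (0.84), to miR-155 miR-26a (0.88) and miR-744 (0.79), to miR-146b miR-28 (0.81) and let-7i (0.79), and to miR-21 miR-181a (0.75) and miR-138 (0.74). These correlations rest on 12 arrays that share a reference and may share isolations, which the labels do not give by array. Arrays 13 to 15 weigh heavily in the correlations of miR-132. Of the 174 miRNAs measured on all arrays, 17 were higher and 22 lower on arrays 13 to 15 than on any other array, relative to the mean of these miRNAs. Among them, miR-132 was higher and miR-146a lower (3.95 to 4.14 against 4.48 to 5.37).

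**Figure D5:**
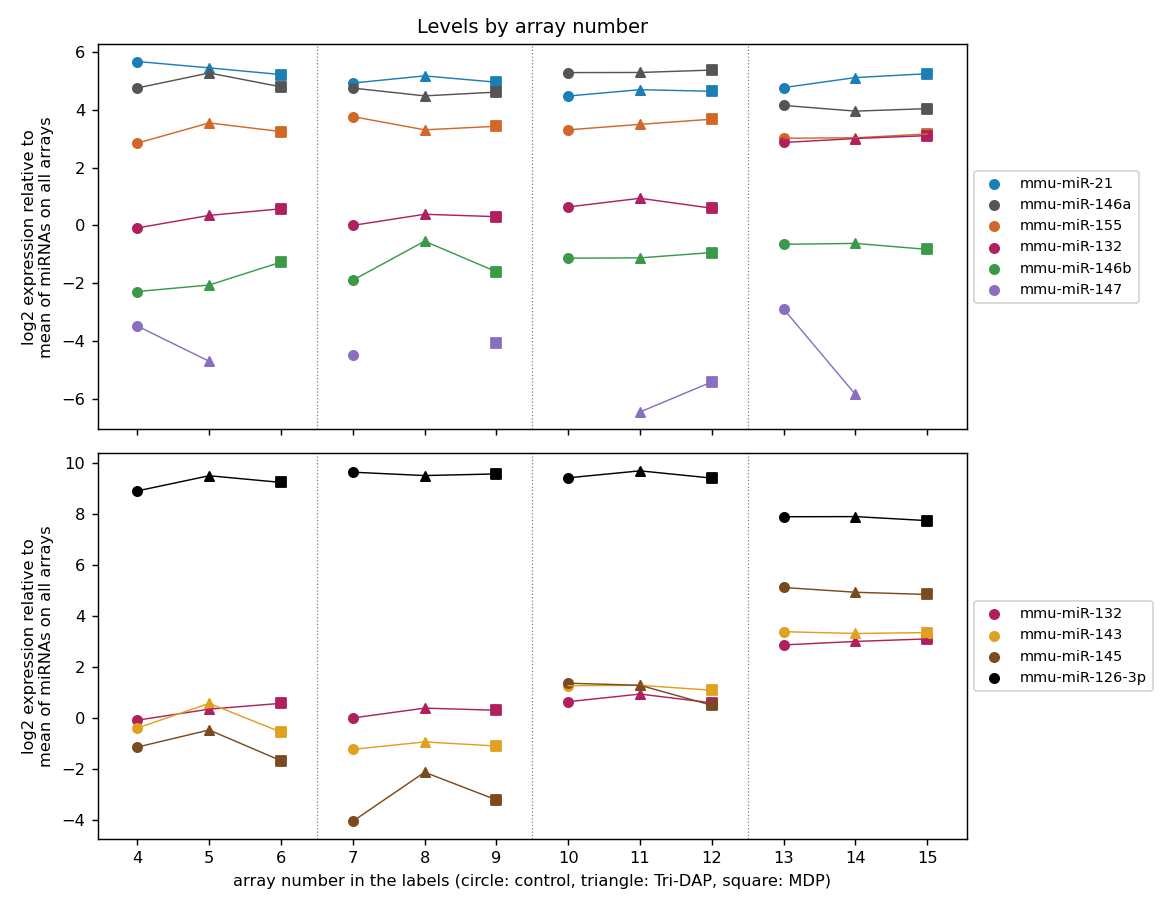
Log2 expression relative to the mean of the miRNAs present on every array (y axis) by array number (x axis), for the 6 members above and for miR-132 with miR-143, miR-145 and miR-126-3p below. Circles are control, triangles Tri-DAP and squares MDP arrays, lines join measured arrays of consecutive numbers and dotted lines separate the sets. MiR-132, miR-143 and miR-145 are high and miR-126-3p is low on arrays 13 to 15 in all 3 groups.

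Other miRNAs tied to NF-κB or Toll-like receptor signalling were examined in the same way. Of a list of 24, 23 had an assay, and 0 of these 23 were called in any of the comparisons. Of all assays tested, 1.69% were called after Tri-DAP, 1.23% after MDP, 2.07% between ligands and 0.426% for both ligands together. With 23 assays, the lack of calls does not set the list apart. After Tri-DAP 19 of 23 (82.6%) had a mean below the control, as did 75.1% of all assays tested. The median was -0.21 against -0.24 for all assays tested. After MDP 18 of 23 (78.3%) were below the control, against 54.1% of all assays tested, with a median of -0.09 against -0.02. The largest mean rise of the list was that of miR-9, a repressor of NFKB1, at 0.99 after Tri-DAP (standard error 1.19) and 1.14 after MDP (standard error 1.19). The lowest mean was that of miR-187, at -2.44 (standard error 1.64) and -2.67 (standard error 1.64), and neither miRNA passed the test. Between both ligands, miR-19b was the highest at 0.33 and miR-203 the lowest at -0.31. For both ligands together, miR-9 (1.06) and miR-187 (-2.56) had the outer values again.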

How the data were processed

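The authors measured 12 TLDAs (rodent set A) with 40 cycles and an automatic threshold. They deposited Ct values in cycles, and log2-scale values that are Ct minus the mean of the 4 U6 wells of the array, which was checked here to within 5.33e-15 cycles. Their table of fold changes holds their own comparisons and was not used, and neither were 12 unnamed columns with 1 number each. Samples were grouped by the labels. The deposited log2 values were taken with the sign turned, wells at 40 were set missing, and an assay was tested with at least 2 measured values per group. All 12 arrays entered one fit per comparison (lmFit and eBayes, limma 3.58.1, R 4.3.3) with no block, and an assay was called where its unadjusted p was under 0.05, with Benjamini-Hochberg adjustment over all assays tested. Each comparison was fitted as a coefficient, so that assays with missing wells have exact standard errors. Single values were tested by exact permutation of arrays (scipy 1.17.1), for which the smallest p is 0.0286 for 4 arrays against 4. The fit was also run on simulated data in which each well varied independently, without differences shared by a whole array or set. This checks the code and not how the fit behaves with such differences. As alternatives, the reference, the test (unmoderated, for each group pair), the groups in the fit, the handling of undetermined or late wells (Ct over 35) and the filter were changed, and each array was left out. Marker sums add 2 to the power of the level over the measured markers of a list. Named were the members, U6, and of the list of 24 other miRNAs those called and the outermost in each comparison, with the 2 assays most like each member. The members and lists were chosen with earlier results of these data known. The number of arrays limits the precision.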

Additional observations from a re-analysis of the deposited data

Results flagged for a closer look

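One value lay far from the others of its group. The log2 expression of mmu-miR-132 relative to U6 was -5.91 in control array 13 and -8.98 to -8.78 in the remaining control arrays, a gap of 0.937 of the whole range. Of 30 groups of 4 arrays examined, on the scales of Ct and of log2 expression relative to U6, 1 was picked out, where chance gives about 1.5 (1 in 20). Tri-DAP array 14 and MDP array 15 also had the earliest Ct of miR-132 in their groups. With control array 13 left out, miR-132 had log2 fold changes of 0.83 after Tri-DAP and 1.01 after MDP, neither of them called.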

How the results depend on the processing

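None of miR-146a, miR-146b, miR-155, miR-132 and miR-21 was called in any of the 4 comparisons under any alternative run. Their log2 fold changes stayed between -0.53 and 1.01 against the control for single ligands. Over all 4 comparisons, they changed sign in 55 of 240 values with 1 array left out and in 40 of 270 values under other settings. With the mean of the miRNAs as reference, the sign turned after Tri-DAP for miR-146a (0.014), miR-155 (0.11) and miR-21 (0.15), between both ligands (MDP minus Tri-DAP) for miR-146a (-0.044), miR-146b (-0.072), miR-132 (-0.025) and miR-21 (-0.093), and for both ligands together for miR-155 (0.13) and miR-21 (0.10). These values were the same with consecutive array numbers as sets. With the median of the U6 wells it turned for miR-132 after Tri-DAP (-0.027), miR-146a after MDP (0.18), and miR-155 (0.064) and miR-21 (0.037) with both ligands. With no normalization it turned for miR-21 after Tri-DAP (0.03), for miR-146b (-0.004) and miR-21 (-0.025) between ligands, and for miR-155 (0.044) and miR-21 (0.018) with both. With U6 and snoRNA202 it turned for miR-155 with both ligands (0.022). Without arrays 13 to 15, a choice made after seeing the data, it turned after Tri-DAP for miR-146a (0.19), miR-155 (0.25) and miR-21 (0.19), after MDP for miR-21 (-0.17), between ligands for miR-146a (-0.28), miR-146b (-0.22), miR-155 (-0.19), miR-132 (-0.26) and miR-21 (-0.36), and with both ligands for miR-146a (0.054), miR-155 (0.16) and miR-21 (0.012).

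MiR-147 between ligands turned to -1.10 with undetermined wells at Ct 40. The members called after Tri-DAP were 0 in place of 1 with undetermined wells at Ct 40, with measurement required on all 12 arrays (which leaves miR-147 untested) and without arrays 13 to 15. For both ligands together they were 0 in these settings and with the median of the U6 wells, with at least 3 measured values per group (miR-147 untested) and under both fits with sets (log2 fold changes of miR-147 -1.59 and -0.99). With 1 array left out the members called ran from 0 to 1 in both comparisons, and were 0 for both ligands without control array 4 or 13, or MDP array 9 or 12. Without MDP array 9 or 12 miR-147 had too few values to test.

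The assays called after Tri-DAP (4) were 7 with the median of the U6 wells or no normalization, 1 with measurement on all 12 arrays, 2 without arrays 13 to 15, 8 with sets and 13 with sets and the mean of the miRNAs. After MDP (3) they were 1 with wells at Ct 40, with the limit of Ct 35, with at least 3 values per group or with the unmoderated test of each group pair, 6 with the median of the U6 wells, 5 with the mean of the miRNAs, 0 with measurement on all 12 arrays, 6 with sets and 12 with sets and the mean. Between ligands (5) they were 2 with wells at Ct 40 or without arrays 13 to 15, 11 with the median of the U6 wells, 8 with no normalization, with only the groups compared or with sets, 1 with at least 3 values, 0 with all 12 arrays and 12 with sets and the mean. With both ligands (1) they were 0 with wells at Ct 40, at least 3 values or all 12 arrays, 3 with the limit of Ct 35 or U6 and snoRNA202, 2 with the mean of the miRNAs, trend and robust eBayes or sets, 4 with no normalization and 11 with sets and the mean. Leaving out 1 array gave 1 to 12 after Tri-DAP (12 without Tri-DAP array 8), 1 to 5 after MDP, 2 to 17 between ligands (17 without Tri-DAP array 8) and 1 to 7 with both. The cause was not tested.

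With 1 array left out, the log2 fold changes after Tri-DAP and MDP ran from -0.51 to 0.31 and -0.31 to 0.057 for miR-146a, -0.40 to 0.53 after Tri-DAP for miR-146b, -0.49 to 0.25 and -0.059 to 0.30 for miR-155, -0.27 to 0.83 and -0.53 to 1.01 for miR-132, and -0.49 to 0.21 and -0.28 to 0.39 for miR-21. Between ligands they ran from -0.37 to 0.45 for miR-146a, -0.16 to 0.69 for miR-146b, -0.14 to 0.60 for miR-155, -0.61 to 0.60 for miR-132 and -0.19 to 0.51 for miR-21. With both ligands they ran from -0.29 to 0.12 for miR-146a, -0.049 to 0.59 for miR-146b, -0.19 to 0.18 for miR-155, -0.22 to 0.92 for miR-132 and -0.33 to 0.25 for miR-21. The change of the gap between miR-146b and miR-146a ran from -0.89 to 0.031 cycles after Tri-DAP. The wells of miR-147 measured could not pass Fisher's exact test for a single ligand, with too few undetermined. The planned difference between miR-132 and miR-212 was not run, since miR-212 has no assay on the array. The signal limits mainly miR-147, which lies late and is undetermined on 4 of 12 arrays.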
